A study of Mus musculus with 18 samples.

Results

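The genes of respiratory complex I were described in the livers of 18 mice, as 44 of the 55487 genes in the count table. They were taken by symbol, as the Ndufa, Ndufb, Ndufc, Ndufs and Ndufv genes with a number, Ndufab1, and the mitochondrial mt-Nd genes, which gave 37 nuclear genes and 7 genes of the mitochondrial genome. All 44 passed the filter on low counts in every comparison. The symbol rule takes in Ndufa4, whose protein is now assigned to complex IV, and leaves out Ndufb1-ps, the name under which the table carries the mouse Ndufb1 gene.

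Complex I (NADH:ubiquinone oxidoreductase) takes electrons from NADH, passes them to ubiquinone and pumps protons across the inner mitochondrial membrane. Its peripheral arm, which holds the flavin and the iron-sulfur clusters, is built from nuclear gene products, whereas the core of its membrane arm is encoded by mitochondrial DNA and translated inside the organelle, so that transcripts of both genomes are needed for 1 enzyme. Around these core subunits sits a large set of nuclear accessory subunits, and in hepatocytes the enzyme reoxidizes the NADH that is made during fatty acid oxidation.

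RNA-Seq was conducted on whole livers of male C57BL/6J mice, bought at 7 weeks of age, with 6 mice and 1 library per mouse in each of 3 groups. Every mouse had received an AAV8 vector with the hepatocyte-directed TBG promoter 1 week before a diet of 16 weeks, so that no group was free of virus. CON-GFP mice received GFP and a purified diet, FPC-GFP mice received GFP and a high-fat diet with added fructose, palmitate and cholesterol plus fructose-glucose water, and FPC-LIPA mice received the FPC diet and human LIPA, which encodes lysosomal acid lipase (LAL). The study compared the diets under GFP, and the vectors on the FPC diet. Replicates are separate mice.

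Total counts per library were from 16632146 to 37739301. The 8 hepatocyte marker genes together made up from 54543 to 114889 CPM in every liver (CPM, a count relative to the TMM-scaled size of its library). Mouse Lipa does not report the human vector, and its level in FPC-LIPA (243 to 391 CPM) overlapped that in FPC-GFP (235 to 406 CPM). Of the FPC-LIPA livers, numbers 36, 37 and 39 stood apart from the other 15: cytosolic ribosomal protein genes held 6.42% to 8.09% of their counts, against 1.43% to 2.93% elsewhere, so the counts of members and lists in FPC-LIPA are also given without them. Number 37 is titled 37b in the labels, which do not say why, and carries a sample sheet number outside the run of 55 to 68 that holds 14 of the 18 libraries, as do CON-GFP 1 and 2 and FPC-GFP 20. In bulk liver RNA, fewer cells of a type and less RNA per cell cannot be told apart.

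Nuclear complex I genes held 0.353% to 0.578% of the counts in those 15 livers and 0.834% to 0.964% in FPC-LIPA 36, 37 and 39. The 7 mitochondrially encoded genes went the other way, with 1.18% to 4.08% of counts in the 15 livers and 0.496% to 0.873% in the same 3. The ratio of nuclear to mitochondrial reads of the complex was therefore 0.111 to 0.391 counts per count in 15 livers and 0.956 to 1.94 in the other 3.

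**Figure D1:**
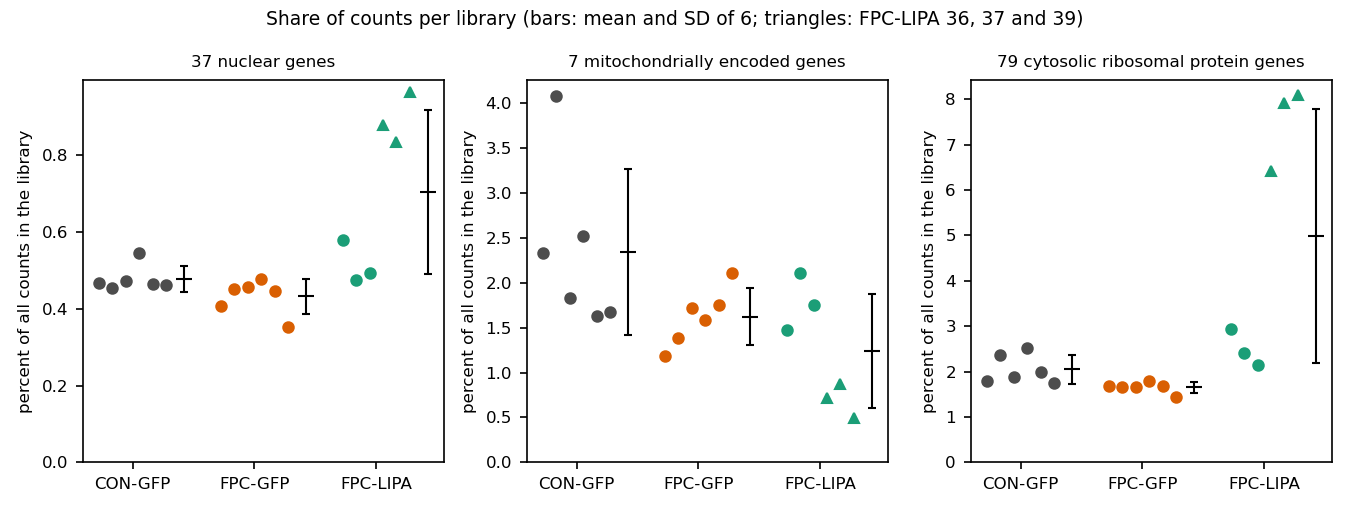
Percent of all counts per library (y axes, from 0) on the 37 nuclear complex I genes, the 7 mitochondrially encoded ones and the 79 cytosolic ribosomal protein genes, for 6 livers a group (points; triangles are FPC-LIPA 36, 37 and 39) with the mean and SD. The triangles lie above all other livers in the first and last panel (from 0.834% and 6.42%) and below all of them in the middle panel (to 0.873%).

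Per kilobase of exon, mt-Nd1, mt-Nd2, mt-Nd4 and mt-Nd5 were the most abundant transcripts of the complex, at 2527 to 8021 CPM per kb in CON-GFP (means of 6), and they held 99.85% to 99.96% of the mitochondrial complex I counts in every library. The nuclear genes were at 1.86 to 452 CPM per kb, with a median of 88.0, from Ndufb2 to Ndufa4. The mitochondrial genes also varied more between mice of a group, with a median coefficient of variation of 49.0% against 13.6% for nuclear genes in CON-GFP, and of 21.9% against 14.2% in FPC-GFP.

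The counts of mt-Nd3, mt-Nd4l and mt-Nd4 need a caution. Of the 50-base words in the mt-Nd3 transcript, 98.0% also occurred in the annotated pseudogene Gm28438 on chromosome 1, and for mt-Nd4l 98.8% occurred in Gm10222 and for mt-Nd4 62.2% in Gm28439 on the same chromosome. How reads that map to several places were counted is not given in the sources used here, so the levels of mt-Nd3, mt-Nd4l and mt-Nd4 are uncertain, and mt-Nd3 and mt-Nd4l rested on 16 to 82 and 1 to 251 counts per library. mt-Nd4l and mt-Nd4 also overlap on the same strand of the mitochondrial genome by 7 bases, shown in capitals in the end of the former (chrM:10150-10173) and the start of the latter (chrM:10167-10190), both of GRCm38 and on the plus strand:
mt-Nd4l: aatctcaacctactacaATGCTAA
mt-Nd4: ATGCTAAaaattattcttccctca
mt-Nd6 is the only member on the minus strand of that genome, and 14 of its bases lie opposite the end of mt-Nd5.

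The effect of the FPC diet was asked first, in FPC-GFP against CON-GFP. Part of the complex I transcripts of both genomes, 19 of 37 nuclear and 4 of 7 mitochondrial, fell with the diet. The test was edgeR's quasi-likelihood test with Benjamini-Hochberg adjustment across all genes tested in a comparison, and a gene passed at an adjusted p under 0.05. Of the 37 nuclear genes 19 fell (51.4%) and none rose, whereas 10.9% of the 14307 genes tested fell and 12.9% rose. The median log2 fold change of the nuclear genes was -0.38, beside 0.01 over all tested genes, and the log2 fold changes ran from -0.69 to 0.18. No nuclear gene reached a fold change of 2, the study's limit for a differentially expressed (DE) gene, which 4.76% of all tested genes passed as higher and 2.44% as lower. No nuclear gene rose at an unadjusted p under 0.05 either (0 of 37), and DESeq2 also gave 0. The count that fell was 2 in 1 fit of all 18 libraries, 8 with library size alone as the scaling (when 1 rose) and 10 within sample sheet numbers 55 to 68.

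The membrane-arm families moved most often. Of the 12 Ndufb and Ndufc genes, accessory subunits of the membrane arm, 10 fell, with a median log2 fold change of -0.48. Ndufc2 was at 87.1 to 118 CPM in CON-GFP (median 101) and at 53.2 to 73.5 CPM in FPC-GFP (median 63.3). These groups did not overlap, and its log2 fold change of -0.69 ± 0.12 (SE, edgeR adjusted p = 0.00147) was the largest fall of a nuclear member.

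Ndufb4 went from 73.2 to 123 CPM (median 88.4) to 48.1 to 72.3 CPM (median 60.8), a log2 fold change of -0.64 ± 0.14 (edgeR adjusted p = 0.00626). Ndufb9, which carries an LYR motif that binds the acyl carrier protein, went from 127 to 161 CPM (median 149) to 66.1 to 109.6 CPM (median 97.8), a log2 fold change of -0.64 ± 0.12 (edgeR adjusted p = 0.00227). Neither gene overlapped between the groups. In all, 11 nuclear genes were lower in every FPC-GFP liver than in every CON-GFP liver, 7 of them Ndufb or Ndufc genes, beside 4.82% of all tested genes, and none was higher in every liver, beside 5.61%. Ndufb7 and Ndufc1 did not pass, at -0.31 and -0.24.

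Of the 13 Ndufa genes 6 fell (Ndufa2, Ndufa4, Ndufa5, Ndufa6, Ndufa7 and Ndufa13), with a median of -0.38 over all 13. Ndufa4 was the most abundant nuclear member, with 497 to 805 CPM in CON-GFP (median 600.0) and 301 to 472 CPM in FPC-GFP (median 425), and the groups did not overlap (-0.59 ± 0.15, edgeR adjusted p = 0.0115). Ndufa10, an accessory subunit related to nucleoside kinases, had the largest positive value and did not pass, with 132 to 181 CPM in CON-GFP and 151 to 202 CPM in FPC-GFP (0.18 ± 0.11, edgeR adjusted p = 0.26). Among the 4 accessory Ndufs and Ndufv genes only Ndufs4, a peripheral-arm subunit whose loss causes Leigh syndrome, fell (-0.61). Ndufab1, the mitochondrial acyl carrier protein, was at 59.4 to 77.7 CPM and 50.1 to 70.7 CPM and did not pass (-0.09 ± 0.10, edgeR adjusted p = 0.544).

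The 7 nuclear core subunits had a median log2 fold change of -0.02, and 2 of them fell. Ndufv2, an iron-sulfur subunit of the NADH-oxidizing module, was at 166 to 229 CPM in CON-GFP (median 186) and 107 to 149.7 CPM in FPC-GFP (median 135), with no overlap (-0.53 ± 0.12, edgeR adjusted p = 0.00605). Ndufs8, an iron-sulfur subunit near the quinone site, went from 95.6 to 108 CPM (median 102) to 63.1 to 96.4 CPM (median 80.3) with a slight overlap of the groups (-0.34 ± 0.11, edgeR adjusted p = 0.0306). The other core genes did not pass.

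Ndufv1, which holds the flavin and oxidizes NADH, was at 106 to 197 CPM (median 165) against 154 to 191 CPM (median 169). Ndufs1, the largest iron-sulfur subunit, was at 109.7 to 144 CPM (median 119) against 109 to 137 CPM (median 126). Both genes overlapped widely between diets, with log2 fold changes of 0.13 and 0.03. Ndufs3 (96.7 to 143 CPM against 86.7 to 114 CPM) and Ndufs7 (65.6 to 104 CPM against 71.2 to 94.0 CPM), of the quinone module, had log2 fold changes of -0.23 and -0.02 and did not pass.

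All 7 mitochondrially encoded genes had negative log2 fold changes, from -0.60 to -1.71 with a median of -0.99, and 4 fell. mt-Nd4, a proton-pumping subunit, was at 4277 to 9228 CPM in CON-GFP (median 5876) and 2767 to 3687 CPM in FPC-GFP (median 3254). It was the only mitochondrial member without overlap of the groups (-0.88 ± 0.18, edgeR adjusted p = 0.00399). mt-Nd5, another pumping subunit, went from 2918 to 8427 CPM (median 3916) to 1539 to 2998 CPM (median 2351), with CON-GFP 2 far above the rest of its group (-0.99 ± 0.24, edgeR adjusted p = 0.00966).

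The 2 members that were DE were scarce ones. mt-Nd6 was at 11.2 to 57.8 CPM (median 17.2) and 6.97 to 14.0 CPM (median 8.44), with overlap (-1.42 ± 0.34, edgeR adjusted p = 0.00929). mt-Nd4l was at 2.19 to 7.77 CPM (median 6.35) and 0.685 to 3.25 CPM (median 1.5004), also with overlap (-1.71 ± 0.40, edgeR adjusted p = 0.00756). mt-Nd1, next to the quinone channel, and mt-Nd2 did not pass edgeR's test. All 7 mitochondrial genes were lower at an unadjusted p under 0.05, and DESeq2 called 6 of them lower, while 2 fell in the edgeR fit of all 18 libraries. Within sample sheet numbers 55 to 68, 4 of 7 were lower at an unadjusted p under 0.05, and the same 4 passed. There mt-Nd1 was at -0.38, mt-Nd2 at -0.26 and mt-Nd3 at -0.41, and none of them passed.

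mt-Nd1 was at 4216 to 14633 CPM (median 6909) in CON-GFP and 3363 to 6044 CPM (median 4736) in FPC-GFP. mt-Nd2 was at 4357 to 14548 CPM (median 5866) and 3561 to 6445 CPM (median 4624). In both genes CON-GFP 2 was the highest liver, and the log2 fold changes were -0.71 ± 0.27 and -0.60 ± 0.27. mt-Nd3 was at 0.663 to 3.96 CPM and 0.586 to 1.41 CPM (-1.17 ± 0.44, edgeR adjusted p = 0.0658).

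**Figure D2:**
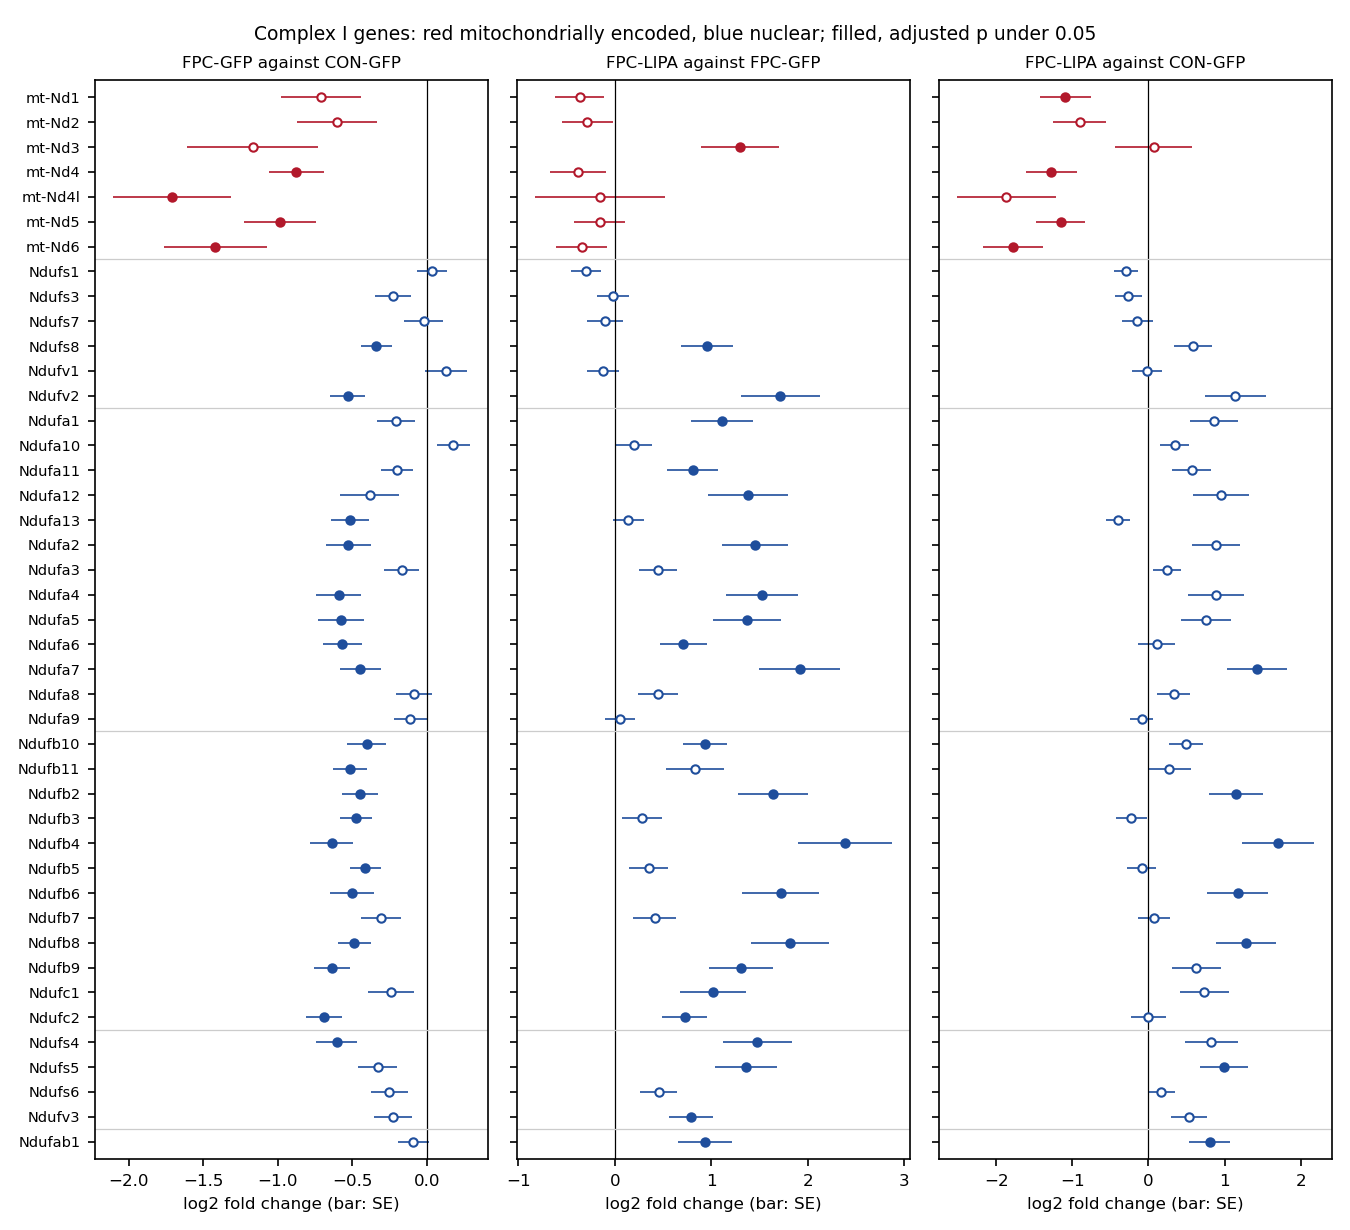
Log2 fold change with SE (x axes) of complex I genes (y axis, grouped by role) in the 3 comparisons; filled points passed at an adjusted p under 0.05. In the first panel 19 blue nuclear points and 4 red mitochondrial points are filled and left of 0, and in the second 22 nuclear points are filled and right of 0 while 1 mitochondrial point is.

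Other parts of the respiratory system moved in the same direction with the diet. Of 6 other mitochondrially encoded proteins 5 fell (median -1.43), led by mt-Atp6 (-2.36 ± 0.68) and mt-Co3 (-2.09 ± 0.63). Their mean levels in CON-GFP were 302 and 419 CPM. Words shared with other transcripts were searched for the complex I members only. Whether the counts of other mitochondrially encoded genes are as uncertain was therefore not checked, in this comparison or the later ones. Of the tested nuclear genes 2 of 4 for complex II (led by Sdhb at -0.62 and Sdhd at -0.37), 3 of 9 for complex III (Uqcrh at -0.71, Uqcrb at -0.57), 4 of 11 for complex IV (Cox7b at -0.81, Cox6c at -0.79) and 11 of 17 for complex V (Atp5md at -0.85, Atp5j2 at -0.71) fell, and none rose in any of them. Of 19 tested complex I assembly factors 8 fell, with Tmem126a at -0.74 and Ndufaf6 at -0.66 the lowest, and the median was -0.23.

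Among 10 regulators of mitochondrial biogenesis Ppargc1a, a coactivator of respiratory genes, fell (-1.17 ± 0.28, edgeR adjusted p = 0.00869), and the other 9 did not pass, a share of 10% that is also near the background. Of 18 genes for maintenance of mitochondrial DNA and RNA 3 fell (16.7%, near the 10.9% of all tested genes): Slirp, a stabilizer of mitochondrial mRNA (-0.50), Mterf3, a repressor of mitochondrial transcription (-0.49), and Tefm, an elongation factor (-0.47). The 2 mitochondrial ribosomal RNAs did not pass (median -0.74). Cytosolic ribosomal protein genes, which are no part of mitochondria, fell as well, 63 of 79 (median -0.49, with Rps27a at -0.95 and Rps25 at -0.81), and the list also moved with the nuclear members in the comparison of vectors. Its part in the fall of complex I genes was not tested.

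Markers of other cells also differed with the diet. All 5 Kupffer cell markers rose, with a summed level of 282 to 496 CPM in FPC-GFP and 98.3 to 209 CPM in CON-GFP, led by Marco (2.11) and Cd5l (1.52), as did 5 of 7 of monocytes and macrophages (100.5 to 312 CPM against 37.0 to 88.2 CPM), led by Gpnmb (3.25) and Cd68 (1.60). Col1a1 (1.84) of 4 stellate cell markers and Pecam1 (0.87) and Lyve1 (0.80) of 4 endothelial markers rose, and Serpina1c (-1.07) and Cyp2e1 (-0.65) of 8 hepatocyte markers fell. None of the tested B cell (3), T cell (2), neutrophil (2), red blood cell (5) and cholangiocyte (4) markers passed. Their part in the result was not tested.

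The effect of LIPA on the FPC diet was asked next, in FPC-LIPA against FPC-GFP. Of the 37 nuclear genes 22 rose (59.5%) and none fell, beside 14.4% of 14620 tested genes that rose and 6.87% that fell, and their median log2 fold change was 0.83 (all tested genes, 0.04). Of these 15 were DE with at least a 2-fold change (10.3% of all tested genes), and 5 were higher in every FPC-LIPA than in every FPC-GFP liver (3.36%). None was DE and lower (1.11% of all tested genes) or lower in every liver (4.3%). By contrast, mt-Nd3 alone of the 7 mitochondrially encoded genes rose, and their median was -0.29. No member fell at an unadjusted p under 0.05 in either genome (0 of 37 and 0 of 7), nor by DESeq2.

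These calls rested on the livers that stand apart. Without FPC-LIPA 36, 37 and 39, Ndufb4 and Ndufb8 rose, the other 35 nuclear genes did not pass, and the nuclear median was 0.15. Calls over all genes shrank too: 169 of 15246 tested genes rose and 17 fell in that fit. In the full groups 2098 of 14620 rose and 1004 fell. Leaving out 1 of them left 11 (number 36), 13 (37) or 12 (39) nuclear genes, and 11 genes rose under every single omission: Ndufa2, Ndufa4, Ndufa7, Ndufb2, Ndufb4, Ndufb6, Ndufb8, Ndufb10, Ndufs4, Ndufs5 and Ndufv2. Within the libraries numbered 55 to 68 on the sample sheet (5 of each of these groups) no nuclear gene passed edgeR's test, 21 rose at an unadjusted p under 0.05, and the median was 0.61. Few of all tested genes passed in that run either.

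The largest increases were those of Ndufb4, Ndufa7 and Ndufb8, whose groups did not overlap. Ndufb4 was at 48.1 to 72.3 CPM in FPC-GFP (median 60.8), at 80.7 to 107 CPM in FPC-LIPA 31, 33 and 34, and at 371 to 563 CPM in FPC-LIPA 36, 37 and 39 (2.39 ± 0.49, edgeR adjusted p = 0.0127). Ndufa7, a peripheral-arm accessory subunit, was at 78.98 to 149 CPM (median 118), at 161 to 175 CPM and at 567 to 757 CPM (1.92 ± 0.42, edgeR adjusted p = 0.0141). Ndufb8, a membrane-arm subunit used as a marker of assembled complex I, was at 69.3 to 78.3 CPM (median 73.2), at 98.8 to 108 CPM and at 282 to 543 CPM (1.82 ± 0.40, edgeR adjusted p = 0.0145).

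All 3 genes thus had their higher step in numbers 36, 37 and 39 and were above FPC-GFP in the other livers too. Without those 3 livers the log2 fold changes were 0.66 for Ndufb4 and 0.50 for Ndufb8, which passed, and 0.54 for Ndufa7, which did not. Ndufs5 and Ndufb10 were the other members without overlap (1.36 and 0.94). Some counts are uncertain, since their transcripts share 50-base words with another gene on the same strand: 21.7% of the words of Ndufs5 with BC002163, 18.3% of Ndufb4 with the pseudogene Ndufb4c, 17.7% of Ndufa12 with Gm15920, 16.0% of Ndufs3 with Gm12251 and 15.6% of Ndufb9 with Gm49356. On the opposite strand Ndufb6 shared 31.6% with Smim27 and Ndufa13 27.1% with Tssk6. These counts are uncertain too, since the strand setting is not given in the sources used here. Ndufb8, Ndufb2 and Ndufa13 lie within the spans of other genes of their strand (Gm20538, Gm42420 and Yjefn3), but the words shared were 2.67% for Ndufb8 and 1.70% for Ndufb2.

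Promoter stretches are printed for 4 genes that rose (Ndufb4, Ndufs5, Ndufb8 and Ndufv2) and for Ndufa9, which did not pass, to show what lies before them. Each has 120 bases of the RefSeq promoter table (GRCm38.p6), read 5′ to 3′ on the strand of the gene and ending before the first annotated base of the gene. Capitals mark a match, searched on both strands, to the consensus of NRF1 with a free base in its centre. NRF1 is a factor named for nuclear respiratory genes. Ndufb4 lies at chr16:37654454-37654573, Ndufs5 at chr4:123718203-123718322, Ndufb8 at chr19:44555443-44555562, Ndufv2 at chr17:66101560-66101679 and Ndufa9 at chr6:126849145-126849264, all on the minus strand:
Ndufb4: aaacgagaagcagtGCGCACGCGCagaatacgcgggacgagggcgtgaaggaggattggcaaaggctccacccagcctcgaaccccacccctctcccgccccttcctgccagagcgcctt
Ndufs5: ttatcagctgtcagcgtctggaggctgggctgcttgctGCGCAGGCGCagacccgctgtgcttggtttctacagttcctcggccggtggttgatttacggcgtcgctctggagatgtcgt
Ndufb8: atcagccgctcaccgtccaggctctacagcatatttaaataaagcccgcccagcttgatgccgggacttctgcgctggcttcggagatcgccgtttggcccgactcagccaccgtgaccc
Ndufv2: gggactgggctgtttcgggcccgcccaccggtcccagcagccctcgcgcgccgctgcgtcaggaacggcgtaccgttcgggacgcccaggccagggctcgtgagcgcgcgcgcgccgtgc
Ndufa9: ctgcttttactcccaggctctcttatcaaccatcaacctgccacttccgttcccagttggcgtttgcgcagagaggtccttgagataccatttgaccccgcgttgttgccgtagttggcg

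Over whole windows of 300 bases, 7 of the 33 nuclear members with a RefSeq entry held the NRF1 consensus (21.2%), beside 5.19% of the windows of 27025 genes. A consensus of YY1, searched in the same way with each window counted once, was in 7 of 33 (21.2%), beside 1.77%. CCGGAAG on either strand, the core of the motif of GABPA, another activator of respiratory genes, was in 4 of 33 (12.1%), beside 9.93%. Among the 20 of these members that rose in FPC-LIPA against FPC-GFP the NRF1 consensus was in 5, that of YY1 in 3 and CCGGAAG in 2, and among the other 13 in 2, 4 and 2. The median log2 fold change was 0.81 in members with the NRF1 consensus and 0.88 in those without. Ndufb8, Ndufv2 and Ndufa9 held none of the 3 motifs in the stretch shown, which says only that these letters are not there.

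By role, 8 of 13 Ndufa genes, 8 of 12 Ndufb and Ndufc genes, 3 of 4 accessory Ndufs and Ndufv genes and Ndufab1 rose, with medians of 0.81, 0.98 and 1.08 for the 3 families. Ndufab1 was at 50.1 to 70.7 CPM in FPC-GFP, 67.1 to 78.8 CPM in numbers 31, 33 and 34, and 144 to 191 CPM in the other 3 (0.93 ± 0.28, edgeR adjusted p = 0.0315). Ndufa4 was at 301 to 472 CPM, at 402 to 659 CPM and at 1494 to 1874 CPM (1.53 ± 0.37, edgeR adjusted p = 0.0188). Both genes overlapped between groups, and both were highest in the same 3 livers.

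Of the 7 nuclear core subunits Ndufv2 and Ndufs8 rose, the pair that fell with the diet, and the median of the core was -0.01. Ndufv2 was at 107 to 149.7 CPM in FPC-GFP, 147 to 174 CPM in numbers 31, 33 and 34, and 583 to 698 CPM in numbers 36, 37 and 39 (1.72 ± 0.41, edgeR adjusted p = 0.0181). Ndufs8 was at 63.1 to 96.4 CPM, 88.7 to 99.1 CPM and 190.3 to 210.2 CPM (0.96 ± 0.27, edgeR adjusted p = 0.0261). The comparisons of diet and vector share the FPC-GFP libraries, and their values are therefore not independent.

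The other core genes did not pass, and FPC-LIPA 36, 37 and 39 did not stand above the rest in those described here. Ndufs1 was at 72.4 to 109 CPM in these 3 livers and 86.6 to 114 CPM in numbers 31, 33 and 34, with the most negative log2 fold change of a nuclear member (-0.30 ± 0.16, edgeR adjusted p = 0.164). Ndufv1 was at 96.2 to 155 CPM and 142 to 195 CPM (-0.13 ± 0.17, edgeR adjusted p = 0.587). Ndufs7, an iron-sulfur subunit at the quinone site, was at 42.5 to 102 CPM and 71.6 to 89.7 CPM (-0.10 ± 0.19, edgeR adjusted p = 0.718).

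Ndufs3 was at 67.97 to 121 CPM in the 3 livers and 85.1 to 104 CPM in the others, with a log2 fold change of -0.01. Among accessory genes Ndufa9 (0.05), Ndufa13 (0.14) and Ndufa10 (0.20) were also close to 0. The change was thus uneven within 1 enzyme: nuclear members spanned log2 fold changes from -0.30 to 2.39.

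**Figure D3:**
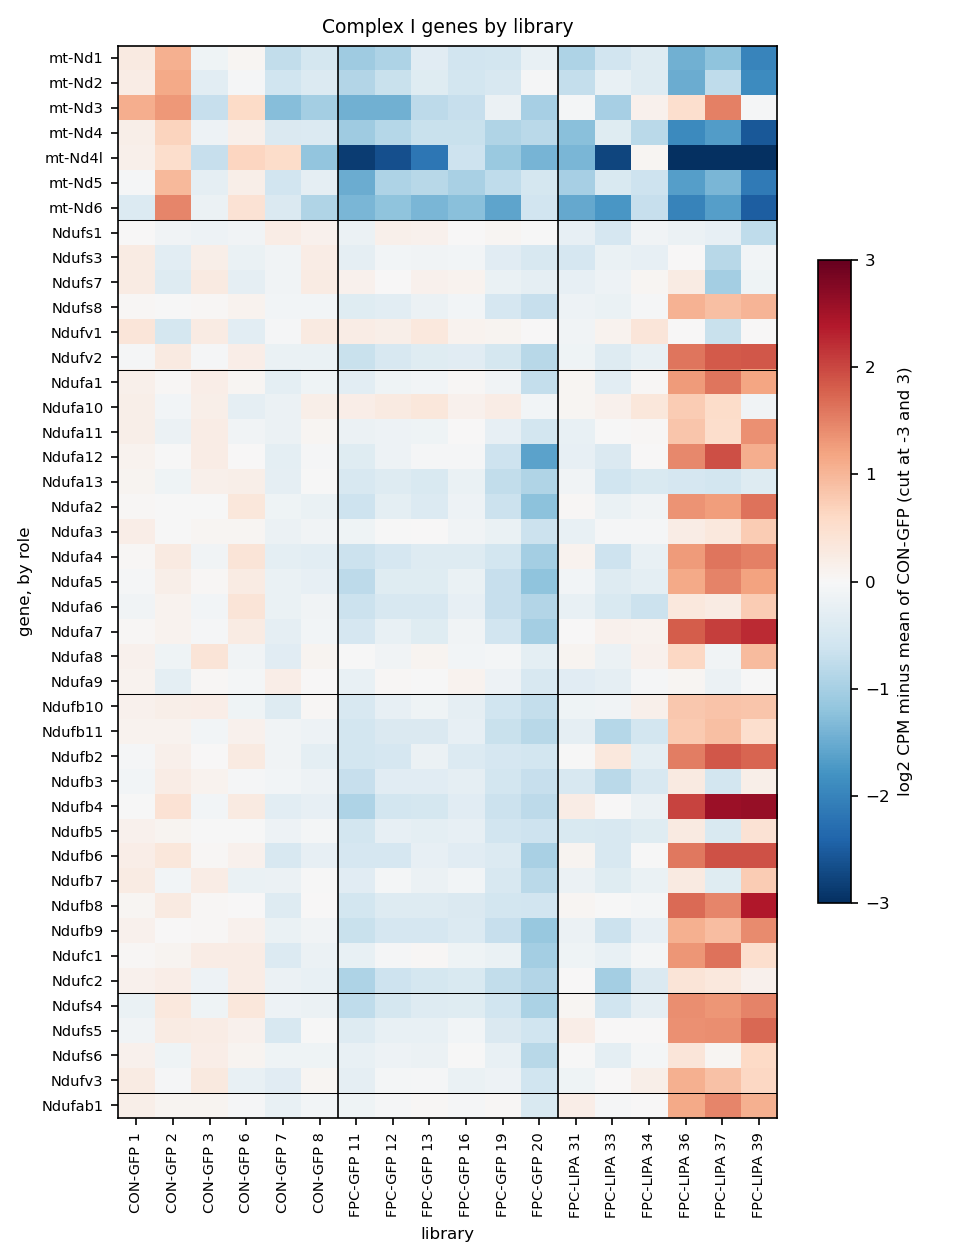
Log2 CPM of complex I genes (rows, by role) in each of 18 libraries (columns) minus the mean of its CON-GFP libraries; red is higher, blue lower, and the colours are cut at -3 and 3. In FPC-LIPA 36, 37 and 39 most nuclear rows are red while Ndufs1, Ndufs3, Ndufs7, Ndufv1, Ndufa9 and Ndufa13 are pale or blue, and 6 of the 7 mitochondrial rows, all but mt-Nd3, are blue.

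Of the mitochondrially encoded genes mt-Nd3 was at 0.586 to 1.41 CPM in FPC-GFP and 0.808 to 4.59 CPM in FPC-LIPA (1.30 ± 0.40, edgeR adjusted p = 0.0373), a call that was lost without any 1 of FPC-LIPA 36, 37 or 39 or of FPC-GFP 11, 12, 13, 16 or 20. The abundant genes had lower values in numbers 36, 37 and 39 than in the others and did not pass. mt-Nd4 was at 1002 to 1814 CPM in these 3 livers, 2418 to 4548 CPM in numbers 31, 33 and 34 and 2767 to 3687 CPM in FPC-GFP (-0.39 ± 0.29, edgeR adjusted p = 0.328). mt-Nd5 was at 1002 to 1679 CPM, 2182.1 to 3155 CPM and 1539 to 2998 CPM (-0.15 ± 0.26).

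mt-Nd1 was at 1792 to 3044 CPM in the 3 livers and 3679.5 to 5349 CPM in numbers 31, 33 and 34, and mt-Nd2 at 1769 to 3868 CPM and 3985 to 5607 CPM, with log2 fold changes of -0.36 and -0.29. mt-Nd6 was at 3.76 to 6.68 CPM and 6.27 to 13.0 CPM (-0.34 ± 0.26), and mt-Nd4l at 0.0718 to 0.609 CPM and 0.735 to 5.16 CPM (-0.15 ± 0.68). The separation of the genomes was therefore seen within the FPC-LIPA group.

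The mean log2 CPM of the 37 nuclear genes minus that of the 7 mitochondrial genes was -1.36 ± 0.58 in CON-GFP, -0.74 ± 0.41 in FPC-GFP and 0.22 ± 1.11 in FPC-LIPA (SD, n = 6 each). It was 0.84 to 1.68 in FPC-LIPA 36, 37 and 39 and -1.08 to -0.48 in FPC-LIPA 31, 33 and 34, which overlapped the range of FPC-GFP (-1.43 to -0.33). These are mean levels per gene, not per length, and no test was made on them. Every gene had the same weight, so the scarce mt-Nd3, mt-Nd4l and mt-Nd6 counted as much as the abundant mitochondrial genes. The uncertain counts of mt-Nd3, mt-Nd4l and mt-Nd4 therefore enter these means.

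**Figure D4:**
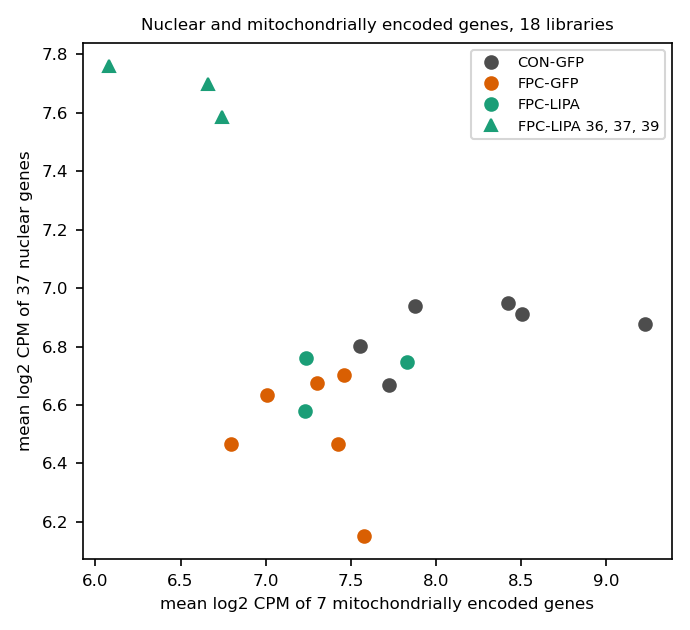
Mean log2 CPM of the 37 nuclear complex I genes (y axis) against that of the 7 mitochondrially encoded ones (x axis) in 18 livers. FPC-LIPA 36, 37 and 39 (triangles) are above and to the left of all others, with a difference of 0.84 to 1.68, whereas the difference was -1.08 to -0.48 in FPC-LIPA 31, 33 and 34 and -1.43 to -0.33 in FPC-GFP.

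The nuclear pattern of FPC-LIPA 36, 37 and 39 was shared by other lists, and the mitochondrial one was not shared by ribosomal RNA. Genes of complex II (2 of 4, Sdhd at 1.02 and Sdhb at 0.90), complex III (4 of 9, Uqcrh at 2.16 and Uqcrq at 1.91), complex IV (8 of 11, Cox7a1 at 2.53 and Cox7b at 1.90) and complex V (12 of 17, Atp5e at 3.00 and Atp5md at 2.97) rose and none fell. Ndufb1-ps, the complex I gene outside the rule, rose as well, from 59.7 to 79.6 CPM in FPC-GFP to 514 to 1240.1 CPM in the 3 livers (2.94 ± 0.57, edgeR adjusted p = 0.0112). Of the cytosolic ribosomal protein genes 65 of 79 rose (median 1.81), led by Rpl41 (3.42) and Rpl17 (3.41).

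None of the other 6 mitochondrially encoded proteins passed edgeR's test (median -0.11, with 1 at an unadjusted p under 0.05), while both mitochondrial ribosomal RNAs, mt-Rnr1 and mt-Rnr2, rose (2.00 and 2.85). mt-Rnr2 was at 2092 to 8204 CPM in FPC-LIPA 36, 37 and 39, above the 166 to 1232 CPM of the other 15 livers. Transcripts of 1 mitochondrial genome thus moved apart from each other in the same livers.

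Of 19 tested complex I assembly factors 6 rose, among them Tmem126a (1.94), Ndufaf5, which modifies Ndufs7 (1.71), and none fell (median 0.58). Acad9, Ndufaf1 and Ecsit, named here after their values were seen, act together in building the membrane arm and were at -0.26, -0.05 and -0.35 and did not pass. Tmem126b of the same list went the other way, at 0.69, and did not pass either. Over the whole list 12 values were positive and 7 negative. None of 10 biogenesis regulators passed edgeR's test (1 at an unadjusted p under 0.05), and Ppargc1a was at 0.12. Of 18 maintenance genes 3 rose (16.7%), Slirp (1.54), Tefm (1.22) and Ssbp1 (0.78), and 2 fell (11.1%), Twnk, the mitochondrial helicase (-0.69), and Lrpprc (-0.59), shares near the 14.4% and 6.87% of all tested genes. Lrpprc and Slirp, whose proteins bind mitochondrial mRNA as a pair, had opposite signs.

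Without FPC-LIPA 36, 37 and 39 few of these calls were left. Cox7a1 of complex IV, Atp5e and Atp5md of complex V and 20 of 79 cytosolic ribosomal protein genes rose (median 0.49 for the last list). No gene for complexes II and III, assembly, maintenance, biogenesis or mitochondrial ribosomal RNA passed edgeR's test, with 1, 2, 4, 2, 0 and 0 at an unadjusted p under 0.05. Of the cell markers Cd5l, Lyz2, Hba-a2, Hbb-bs and Hbb-bt rose, and 169 of 15246 tested genes rose in all.

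Markers of some other cells were higher in the FPC-LIPA group. Those of monocytes and macrophages (5 of 7 rose, led by Lyz2 at 1.88 and Trem2 at 1.76) summed to 548 to 674 CPM in the livers 36, 37 and 39 and to 436 to 442 CPM in numbers 31, 33 and 34 and 100.5 to 312 CPM in FPC-GFP. Red blood cell genes (2 of 5, Hbb-bs at 3.33 and Hbb-bt at 2.86) summed to 1732 to 2559 CPM, 528 to 947 CPM and 283 to 488 CPM. Alas2 of that list was negative (-0.61) and did not pass, while the other 4 were positive. Neutrophil genes (2 of 2 tested, S100a8 at 2.90 and S100a9 at 2.63) summed to 12.4 to 15.9 CPM, 3.23 to 4.53 CPM and 0.716 to 2.27 CPM. The sums of these lists were highest in the livers with the highest nuclear complex I levels.

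Kupffer cell markers (2 of 5, Cd5l at 0.92 and Clec4f at 0.49) summed to 366 to 633 CPM in those 3 livers, and their range was 469 to 761 CPM in FPC-LIPA 31, 33 and 34. Of 4 B cell markers Ms4a1 (2.32) and Cd79b (1.68) rose, and of 3 tested T cell markers Cd3d alone (2.81). These genes were scarce, at means of 0.513, 1.57 and 0.298 CPM in FPC-GFP and 2.44, 4.82 and 2.05 CPM in FPC-LIPA. Of 4 stellate cell markers Lrat rose (0.91), while the other 3 were negative and did not pass (median of the list -0.16). Serpina1c fell among 8 hepatocyte markers (-1.02), and no endothelial or cholangiocyte marker passed edgeR's test. The part of these cells in the complex I result was not tested.

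Against the control diet, mitochondrially encoded genes of FPC-LIPA livers were called lower, and the nuclear genes were called at a share near that of all genes. Of the nuclear genes 7 rose, 18.9% beside 14.7% of 14433 tested genes, a count that fell to 1 or 2 without any 1 of 7 libraries, and none fell, beside 8.2%, with a median of 0.53 (all tested genes, 0.04). The 7 were Ndufb4 (1.70), Ndufa7 (1.43), Ndufb8 (1.29), Ndufb6 (1.17), Ndufb2 (1.15), Ndufs5 (0.99) and Ndufab1 (0.80), of which the first 5 were DE (11.8% of all tested genes). No nuclear gene was without overlap of the groups, higher (5.58%) or lower (5.56%). At an unadjusted p under 0.05, 19 nuclear genes were higher and 1 lower, and DESeq2 called 11 and 1.

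Of the mitochondrially encoded genes 4 fell, all past a 2-fold change (3.25% of all tested genes), and the median was -1.16. mt-Nd6 was at 11.2 to 57.8 CPM in CON-GFP and 3.76 to 13.0 CPM in FPC-LIPA (-1.78 ± 0.39, edgeR adjusted p = 0.00551). mt-Nd4 was at 4277 to 9228 CPM and 1002 to 4548 CPM (-1.27 ± 0.34, edgeR adjusted p = 0.0153). mt-Nd5 (-1.16 ± 0.32) and mt-Nd1 (-1.09 ± 0.33) also fell, and all 4 overlapped between groups.

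mt-Nd4l (-1.87), mt-Nd2 (-0.91) and mt-Nd3 (0.07) did not pass. Without FPC-LIPA 36, 37 and 39 no nuclear gene rose (0 at an unadjusted p under 0.05) and 3 fell (Ndufb3, Ndufb5 and Ndufb11, at -0.57, -0.42 and -0.52). Of all 15113 genes tested in that fit 1763 rose and 957 fell, so the share of nuclear members that fell was near the background. The nuclear median was -0.11, and no mitochondrial gene passed edgeR's test, with 3 lower at an unadjusted p under 0.05. The 3 most negative nuclear members in the full groups were Ndufa13 (-0.40), Ndufs1 (-0.29) and Ndufs3 (-0.27), and none passed. Ndufa13, also known as GRIM-19, was at 217 to 294 CPM in CON-GFP and 174 to 241 CPM in FPC-LIPA.

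Other lists in this comparison were described in the same way, beside 14.7% of 14433 tested genes that rose and 8.2% that fell. The shares of complex IV genes that rose (18.2%) and of maintenance genes (11.1%) and regulators (10%) that fell were near these. Assembly factors were at 5% in each direction, under both. Of the other mitochondrially encoded proteins 4 of 6 fell (mt-Co2 at -2.65 and mt-Atp8 at -1.86 lowest), mt-Rnr2 rose (2.104), Ndufaf5 rose and Ecsit fell among 20 assembly factors (1.39 and -0.52), Lrpprc and Twnk fell among 18 maintenance genes (-0.78 and -0.62), and Ppargc1a fell among 10 regulators (-1.08). Genes that rose numbered 0 of 4 for complex II, 2 of 9 for complex III (Uqcrh 1.40, Uqcrq 1.32), 2 of 11 for complex IV (Cox7a1 2.84, Cox4i1 1.27), 5 of 17 for complex V (Atp5e 2.48, Atp5md 2.07) and 47 of 79 for cytosolic ribosomal proteins (Rpl41 2.76, Rpl17 2.56), with none lower.

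Markers that rose against CON-GFP were 5 of 5 for Kupffer cells (Marco 3.30, Cd5l 2.42), 6 of 7 for monocytes and macrophages (Gpnmb 4.93, Lyz2 3.30), 2 of 4 for B cells (Ms4a1 2.75, Cd79b 2.03), 2 of 3 for T cells (Cd3d 2.48, Cd3g 1.62), 2 of 2 for neutrophils (S100a9 2.82, S100a8 2.57), 2 of 5 for red blood cells (Hbb-bs 2.75, Hbb-bt 2.26), 2 of 4 for stellate cells (Col1a1 1.65, Lrat 1.00) and 3 of 4 for endothelial cells (Lyve1 1.41, Clec4g 0.79). The named B and T cell genes were scarce, at means of 0.372 (Ms4a1) to 1.20 CPM (Cd79b) in CON-GFP. Hepatocyte markers fell in 4 of 8 (Serpina1c -2.10, Cyp2e1 -1.14), Alas2 fell among the red blood cell genes (-0.97) and Reln among the stellate cell markers (-0.46), and no cholangiocyte marker passed. Without FPC-LIPA 36, 37 and 39 the Kupffer cell (5 of 5) and monocyte and macrophage lists (6 of 7) had the same counts, 3 B cell and 3 red blood cell markers rose, and the cytosolic ribosomal protein genes that rose numbered 1 (Rpl41). Cox7a1 was then the only gene higher among complexes II to V, Uqcrb, mt-Co2, Lrpprc, Ppargc1a and the assembly factors Ecsit, Ndufaf1 and Ndufaf6 fell, and neither mitochondrial ribosomal RNA passed.

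Nuclear members with short coding sequences had the higher log2 fold changes in FPC-LIPA against FPC-GFP, and the lower ones with the diet. Across the 37 nuclear genes, the log2 fold change in FPC-LIPA against FPC-GFP had a Pearson r of -0.53 and a Spearman rho of -0.48 with the log2 length of the longest coding sequence. The relation was weaker with the longest transcript (rho -0.25) and with the union of exons, which for some members holds long retained parts (rho -0.19). Without FPC-LIPA 36, 37 and 39 rho with the coding sequence was -0.41. With the diet, in FPC-GFP against CON-GFP, the sign was reversed, at a rho of 0.41 and a Pearson r of 0.57 with the coding sequence. The median log2 fold change was then -0.45 in genes of up to 447 bases and -0.23 in longer ones. Both comparisons share the FPC-GFP libraries. These are descriptions across genes of 1 complex, measured in the same libraries.

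Of the 19 genes with a coding sequence of up to 447 bases 14 rose (median 1.11), and of the 18 longer ones 8 (median 0.62). Ndufv2 rose with a coding sequence of 744 bases, and Ndufb3 did not pass with 312. Over 12856 tested genes with a coding sequence rho was -0.34, so a relation of the same sign was present beyond the complex. When each library's trend on exon length was removed, 13 nuclear genes rose, with a median of 0.49. That fit used the union of exons and did not remove the relation with the coding sequence. Its rho with the coding sequence was -0.22 in the nuclear members and -0.21 over the 12856 genes.

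**Figure D5:**
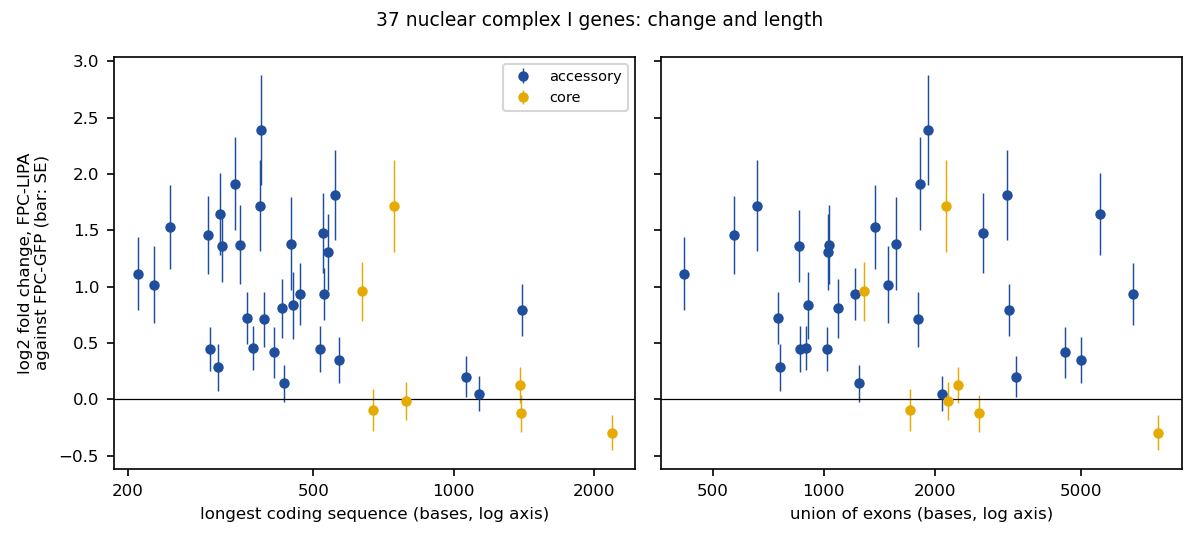
Log2 fold change with SE in FPC-LIPA against FPC-GFP (y axis) of the 37 nuclear complex I genes against the length of the longest coding sequence (left) and of the union of exons (right), in bases on log axes. The core subunits (yellow) are all among the 18 genes with the longer coding sequences, and rho is -0.48 on the left and -0.19 on the right.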

How the data were processed

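Liver RNA-Seq libraries of 18 mice (6 per group) were analysed. The authors deposited raw read counts per gene, made per the labels and the study's methods with FastQC, Trimmomatic 0.33, HISAT2 2.1.0 and featureCounts of Subread on mm10. The annotation version, strand setting, handling of multimapping reads and the kit used for each library are not given in the sources used here. Another 5 columns of the table belong to no sample here and were not used.

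Counts were filtered with filterByExpr, scaled by TMM and tested with edgeR 4.0.16 (glmQLFit, glmQLFTest, R 4.3.3) on the 12 libraries of each comparison, with Benjamini-Hochberg adjustment over all tested genes. Members passed at an adjusted p under 0.05 and were DE with a fold change of at least 2. SE is the log2 fold change over the root of F. CPM used TMM factors from the 18 libraries together, and its log2 used a prior count of 2. P-values measure the spread between these mice. Libraries of a group differed beyond counting noise (chi-square per degree of freedom from 16.8 to 647 over 45 pairs), so each was counted as 1 sample. Total counts were 16632146 to 37739301 per library.

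In simulated counts with 200 genes changed 4-fold, 184, 176 and 179 were recovered in the comparisons of diet, vector and FPC-LIPA against CON-GFP, with 8, 15 and 9 unchanged genes called. Genes were drawn independently there, with the same mean across a group. The simulation therefore does not cover smaller changes, genes that move together or the split within FPC-LIPA. Lengths, exons and overlaps came from GENCODE M21 (GRCm38). Ranges were printed for the mitochondrial and core members, the 3 largest nuclear changes in each direction, Ndufab1 and Ndufa4, and from each list the 2 largest passed genes were named, while other list genes were named after their values were seen. Members and lists were chosen with earlier results of these data known. Alternatives were DESeq2 1.42.0, other scalings, no filter, all libraries in 1 fit, left-out libraries, sample sheet runs, stricter calls, and a fit with the lowess trend on exon length (span 0.3) removed in each library. Figures used Python 3.11.15 and matplotlib 3.10.9. An item withheld from this text is counted in the totals but not reported here.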

Additional observations from a re-analysis of the deposited data

Results flagged for a closer look

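Of 147 groups of 6 values examined for 1 value far from the other 5, 10 held one, and chance alone flags about 1 in 20. Nuclear complex I genes held 0.544% of counts in CON-GFP 6, beside 0.453% to 0.470% in the other CON-GFP livers. Mitochondrially encoded complex I genes held 4.08% in CON-GFP 2, beside 1.63% to 2.52%. Mitochondrial ribosomal RNA held 0.121% of counts in FPC-GFP 20, beside 0.0498% to 0.0763%, and 0.977% in FPC-LIPA 37, beside 0.0845% to 0.418%.

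FPC-GFP 20 was also the lowest liver of its group, far from the others, in log2 CPM of 5 nuclear members: Ndufa3 at 6.20, Ndufb6 at 5.44, Ndufc1 at 4.94, Ndufs6 at 6.03 and Ndufab1 at 5.65. Without it, 17 nuclear genes fell with the diet, beside 19 with it, and 13 rose with LIPA, beside 22. Ndufb2 was at 3.21 in FPC-GFP 13, above the 2.83 to 2.97 of the other FPC-GFP livers.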

How the results depend on the processing

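With library size alone, 8 nuclear genes fell and 1 rose with the diet (nuclear median -0.19, all genes 0.21), no mitochondrial gene rose with LIPA (1438 genes called in all), and against CON-GFP 13 nuclear genes rose and 2 mitochondrial genes fell. In 1 fit of all 18 libraries, 2 nuclear and 2 mitochondrial genes fell with the diet (1352 genes in all), LIPA called 4701 genes, and 19 nuclear genes rose against CON-GFP. Within sample sheet numbers 55 to 68, 10 nuclear genes fell with the diet (1995 in all), 0 nuclear and 0 mitochondrial genes rose with LIPA (104 in all), and against CON-GFP 0 nuclear genes rose and 1 mitochondrial gene fell (1402 in all). At an adjusted p under 0.01 the diet lowered 10 nuclear genes (1403 in all), LIPA raised 0 and 0 (53 in all), and against CON-GFP 0 nuclear genes rose and 1 mitochondrial gene fell (1385 in all). With a fold change of at least 2, 0 nuclear and 2 mitochondrial genes fell with the diet, and 1030, 1671 and 2176 genes passed in the 3 comparisons, beside 3410, 3102 and 3304. With no filter, 0 mitochondrial genes rose with LIPA. With the length trend removed, 13 nuclear and 0 mitochondrial genes rose with LIPA and 2 nuclear genes fell against CON-GFP. DESeq2 called 11 nuclear genes higher and 1 lower against CON-GFP. The longest coding sequence in place of exon length gave a rho of -0.48 (LIPA) and -0.39 (against CON-GFP), beside -0.19 and -0.10. Apart from the choice of libraries or threshold, the cause of these changes was not tested.

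Without FPC-LIPA 36, 37 and 39, LIPA raised 2 nuclear and 0 mitochondrial genes (186 in all, nuclear median 0.15). Against CON-GFP 0 nuclear genes rose, 3 fell (median -0.11) and 0 mitochondrial genes fell, beside 1763 higher and 957 lower of 15113 tested genes. Of the 37 nuclear genes 20 had the other sign there, and of the 7 that had risen Ndufb6 did, at -0.12. With 1 library left out, the diet lowered 15 to 20 nuclear genes (median -0.44 to -0.29) and 4 to 6 mitochondrial genes (-1.09 to -0.71), of 2466 to 3569 in all. LIPA raised 11 to 25 nuclear genes (0.68 to 0.98) and 0 to 1 mitochondrial genes (-0.49 to -0.15), of 1092 to 5582. Against CON-GFP 1 (without FPC-LIPA 39) to 17 (without FPC-LIPA 33) nuclear genes rose (0.41 to 0.63) and 3 to 5 mitochondrial genes fell (-1.34 to -0.89), of 2382 to 4690, with 2 nuclear genes left without any 1 of CON-GFP 1, 3, 7 and 8 and FPC-LIPA 36 and 37. No paired analysis was possible because the groups share no mouse numbers. Scaling without ribosomal and mitochondrial genes kept every one of the 21 summary values on its side.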

Other observations

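The FPC-GFP livers were closer to each other than the other groups in the mitochondrial members: the coefficient of variation had a median of 21.9% over the 7 genes, beside 49.0% in CON-GFP and 45.3% in FPC-LIPA. The nuclear members had medians of 14.2%, 13.6% and 40.8% in the same groups. Counting also limits mt-Nd3, mt-Nd4l and mt-Nd6, which had 16 to 82, 1 to 251 and 87 to 892 counts per library.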
